A study of Mus musculus with 8 samples.

Results

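The cytosolic ribosome of dermal fibroblasts was followed through the genes that encode its proteins. Members were the genes whose single annotated symbol starts with Rpl or Rps and a digit, together with Rplp0 to Rplp2 and Rpsa. Pseudogenes, the S6 kinases (Rps6k) and Rps19bp were left out. The rule used symbols only, not measured values, though it was set with earlier results of these data known. It gave 71 of the 17097 genes measured, 46 of the large subunit (Rpl) and 25 of the small subunit (Rps), read by 134 probe sets. Where a gene had several probe sets, the one with the highest average across all 8 arrays stood for it.

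RNA came from dermal fibroblasts of 4 old mice (18 months) and 4 young mice (2 months), with 1 array per animal and no treatment. Skin was cleared of its lower layer and digested with collagenase, and cells positive for Pdgfra and CD34 and negative for CD45, CD117, CD24, CD31 and EpCam were sorted. Strain and sex are not given in the sources used here. The protocol lists 6 ng of total RNA as the input and an amplification of 18 cycles, so all levels are those of amplified cDNA. Bulk arrays cannot tell a change in RNA per cell from a change in which cells were sorted.

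A ribosome joins a large subunit, which forms peptide bonds, to a small subunit, which reads the messenger RNA. Each subunit holds a fixed set of proteins, most in 1 copy, so their genes are usually expressed together. Their messenger RNAs begin with a run of pyrimidines, the terminal oligopyrimidine tract, through which mTORC1 and Larp1 control their translation. A few genes encode close relatives of a ribosomal protein, such as Rpl22l1 of Rpl22 and Rps27l of Rps27, and these are called paralogue-like here. In dermal fibroblasts the ribosome makes the collagens and proteoglycans of the skin matrix.

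All values are log2 levels after robust multi-array averaging (RMA), and differences are old minus young. A gene was called when its limma p, adjusted by Benjamini-Hochberg over all 17097 genes, lay under 0.05. By that rule 17.5% of all genes were called, 9.87% higher and 7.66% lower in old fibroblasts. Of the 71 ribosomal protein genes 2 were called, or 2.82%. Rpl19 rose and Rpl7l1 fell, and the other 69 did not pass. The share called among ribosomal protein genes was below that of all genes, and none of the 25 small subunit genes passed, with 3 higher and 1 lower at an unadjusted p under 0.05.

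The members leaned the same way by small amounts. The difference was above 0 for 57 of 71 ribosomal protein genes (80.3%), against 51.6% of all genes. The median difference was 0.06 over the members, a rise of 4.07%, and 0.01 over all genes. In 21 members, or 29.6%, the 4 old values all lay above the 4 young values, against 11.7% of all genes. By level, the share was 36.8% of members and 18.1% of other genes between 11 and 12, and 26.3% of members and 10.8% of other genes at 12 and over. The 4 old values all lay below the young ones in 2 members (2.82%, against 9.66% of all genes), Rpl7l1 and Rpl37a. The limma standard error of a single member's difference had a median of 0.06, the same size as the median difference. It is moderated, with each gene's variance moved toward a value shared by all genes, so it does not measure spread between animals alone. Rpl6, with an SD of 0.02 in old and 0.02 in young, had a standard error of 0.05. At an unadjusted p under 0.05, 15 members were higher and 2 lower, where 16.6% of all genes were higher and 13.1% lower.

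**Figure D1:**
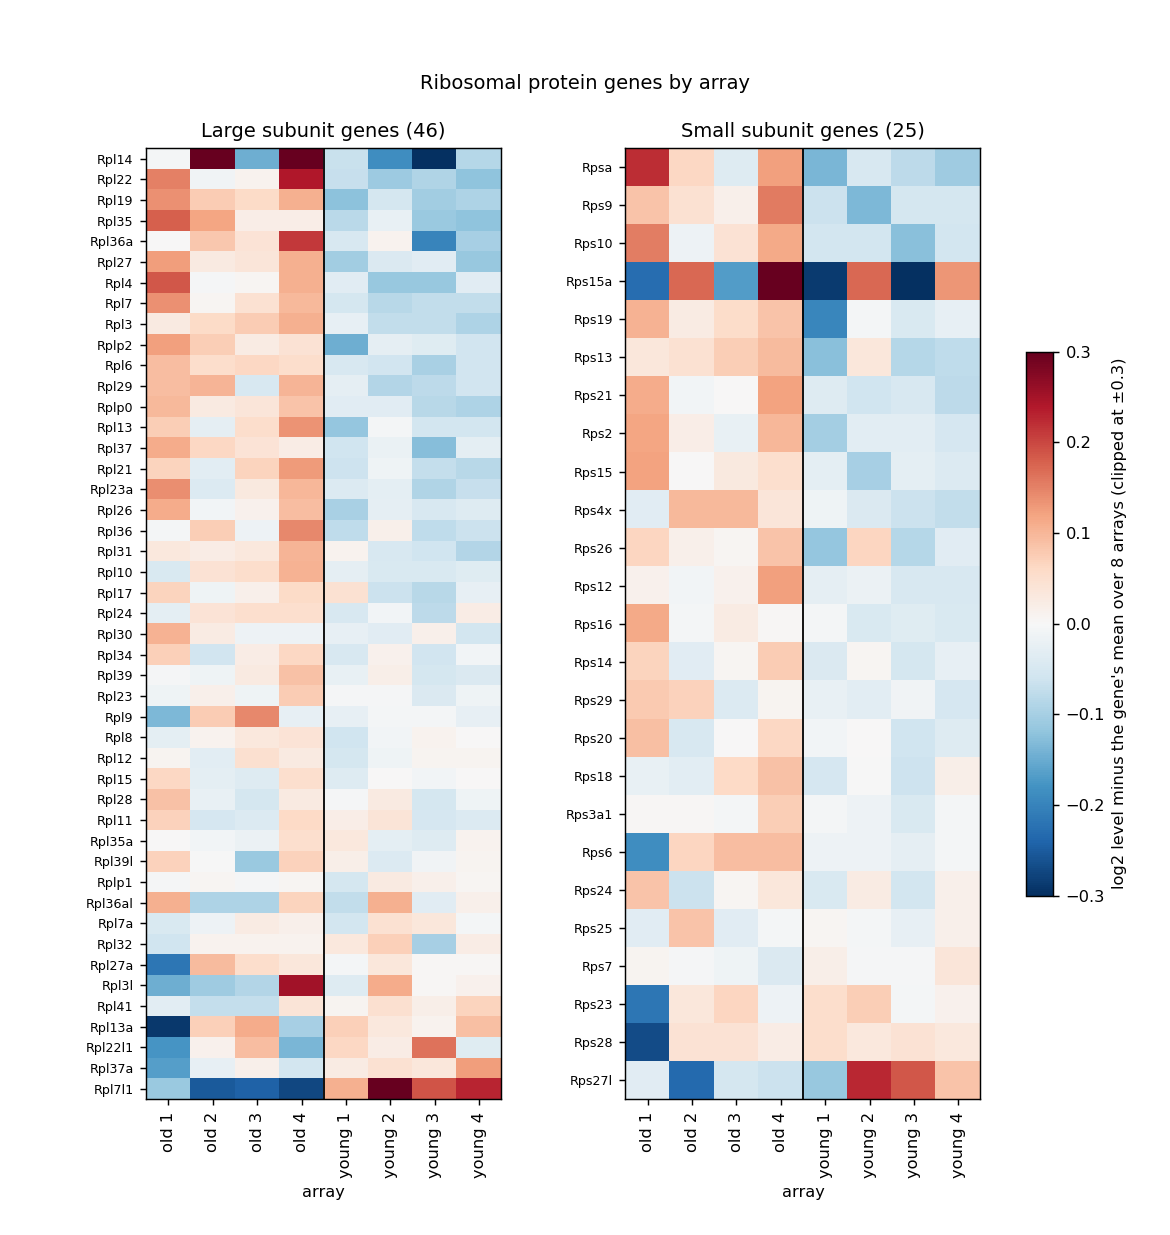
Log2 level of each ribosomal protein gene in each array minus that gene's mean over the 8 arrays, in colour, for 46 large subunit genes (left) and 25 small subunit genes (right), ordered by age difference, with old arrays left of the black line and young arrays right of it. Most rows are warmer in old than in young arrays, Rpl7l1 at the foot of the left panel is colder in all 4 old arrays, and old array 1 is dark blue in a few rows such as Rps6, Rps23 and Rps28.

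Rpl7l1 showed the largest difference of any member. It encodes a nucleolar relative of Rpl7, whose counterpart in budding yeast helps assemble the large subunit precursor and is not part of the finished ribosome. Its level was 8.71, 8.57, 8.58 and 8.55 in old fibroblasts, against 8.93, 9.18, 9.01 and 9.05 in young fibroblasts. All old animals lay below all young animals. The difference was -0.44 ± 0.07 (SE; 95% interval -0.60 to -0.28), or 1.36-fold lower in old (limma adjusted p = 0.00247). Its other probe sets, read in a limma fit over all 28898 probe sets with 1 symbol, differed by -0.30 (adjusted p = 0.114) and -0.32 (adjusted p = 0.147). All 3 probe sets were therefore lower on average, but only the brightest passed. With the array mean of the non-specific probe sets as a covariate the difference was -0.62 and the call was lost (adjusted p = 0.0687). All old values of this background covariate lay below all young ones, so a fit with it can hardly separate it from age. With the most variable probe set the difference was -0.32 (adjusted p = 0.144).

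Rps27l was the small subunit gene with the largest decrease on average. It is a paralogue of Rps27 that p53 induces. Its level was 10.68, 10.48, 10.66 and 10.65 in old fibroblasts, against 10.60, 10.94, 10.90 and 10.80 in young fibroblasts. The groups overlapped through young replicate 1, and the difference of -0.19 ± 0.09 (SE) did not pass (limma adjusted p = 0.167). Without that array it was -0.26 and passed (adjusted p = 0.0464). A dimmer probe set of the gene read 10.29, 10.01, 10.25 and 10.08 in old, against 10.31, 10.64, 10.56 and 10.56 in young. There the groups did not overlap, and the difference of -0.36 ± 0.09 (SE) passed (limma adjusted p = 0.0246, over probe sets, where 16.8% were called). Another probe set differed by -0.24 (adjusted p = 0.0627).

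The other paralogue-like genes did not pass. Rpl22l1 differed by -0.10 ± 0.08, Rpl3l by -0.04 ± 0.09, Rpl36al by -0.01 ± 0.07 and Rpl39l by 0.01 ± 0.06 (SE, limma adjusted p between 0.42 and 0.96). Rpl3l is a relative of Rpl3 used by striated muscle, and it lay between 4.06 and 4.46 in old and between 4.17 and 4.32 in young, below the median gene level of 5.99. The 7 muscle markers examined included no called gene. As a group, 5 of the 6 paralogue-like genes had a difference below 0, and their median was -0.08. The exception, Rpl39l, lay at -0.01 after median centring and -0.02 after a further quantile normalization, and Rpl22l1 lay at 0.11 with the background covariate. The 65 other members had a median of 0.07, and 56 of them lay above 0.

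The parent genes measured here all had differences above 0, and none passed. Rpl22, a large subunit protein whose loss in mice mainly affects T cells, read 10.62, 10.46, 10.48 and 10.71 in old fibroblasts, against 10.40, 10.36, 10.38 and 10.35 in young fibroblasts. No values were shared between the ages, but the difference of 0.20 ± 0.07 (SE) did not pass (limma adjusted p = 0.0842). Rpl7 differed by 0.14 ± 0.06 and Rpl3 by 0.13 ± 0.05 (SE), with separate groups in both and neither passing (adjusted p = 0.114 and 0.128). A second bright probe set of Rpl7 read 11.52, 11.51, 11.53 and 11.64 in old, against 11.37, 11.36, 11.34 and 11.37 in young. Its difference of 0.19 ± 0.06 (SE) passed (limma over probe sets, adjusted p = 0.047). Rpl36a differed by 0.17 ± 0.07 and Rpl39 by 0.05 ± 0.06 (SE), both with overlapping groups.

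Rpl19, a large subunit protein that reaches across to the small subunit, read 12.05, 11.99, 11.97 and 12.02 in old fibroblasts, against 11.79, 11.86, 11.81 and 11.82 in young fibroblasts. The groups lay apart by a gap wider than the range within either. The difference was 0.19 ± 0.05 (SE; 95% interval 0.07 to 0.31), or 1.14-fold higher in old (limma adjusted p = 0.0386). This call was fragile, since it was lost when any 1 of the 8 arrays was left out (adjusted p from 0.0617 to 0.0931). It was also lost after median centring (0.17, adjusted p = 0.0968) and with the specimen number as a replicate block (adjusted p = 0.103). With the background covariate, which moves with age, the difference was 0.11 (adjusted p = 0.789).

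Promoter sequence is shown for the genes that the comparison turned on, and for Rps6 as a textbook example of the pyrimidine tract. RefSeq promoters (GRCm38.p6) were matched by symbol for 57 of the 71 members. Each line runs 5′ to 3′ from 90 bases before the most upstream listed start to 30 bases after it, and capitals mark runs of 8 or more pyrimidines (C or T) on the transcribed strand. The windows are chr17:46782627-46782746 (minus strand) for Rpl7l1, chr9:66945996-66946115 (plus) for Rps27l, chr11:98026620-98026739 (plus) for Rpl19, chr9:120127676-120127795 (plus) for Rpsa and chr4:86857338-86857457 (minus) for Rps6.
Rpl7l1: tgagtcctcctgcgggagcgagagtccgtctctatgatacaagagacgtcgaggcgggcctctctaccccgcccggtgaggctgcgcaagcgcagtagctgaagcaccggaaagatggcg
Rps27l: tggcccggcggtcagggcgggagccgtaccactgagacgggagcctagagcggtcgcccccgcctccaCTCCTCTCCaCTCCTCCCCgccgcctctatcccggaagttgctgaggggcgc
Rpl19: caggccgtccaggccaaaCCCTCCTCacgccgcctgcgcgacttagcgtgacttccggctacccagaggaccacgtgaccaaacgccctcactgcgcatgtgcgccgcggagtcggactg
Rpsa: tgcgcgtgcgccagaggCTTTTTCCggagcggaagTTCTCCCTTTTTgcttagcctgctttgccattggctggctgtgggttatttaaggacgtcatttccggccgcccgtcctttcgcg
Rps6: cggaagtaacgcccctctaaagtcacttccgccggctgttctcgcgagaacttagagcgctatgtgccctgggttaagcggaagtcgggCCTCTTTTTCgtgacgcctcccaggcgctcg

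The window of Rpl7l1 holds no such run, nor does that of Rpl22, which is not shown, and that of Rps6 holds 1 of 10 bases across the listed start. The runs of Rpl19 and Rpsa start more than 50 bases before the start shown, outside the span searched next. The run of 12 bases in Rpsa reaches into that span, but with fewer than 8 bases inside it. A run of 8 or more pyrimidines from 50 bases before to 30 bases after a listed start was found on the transcribed strand in 35 of 57 member genes (61.4%), against 33.6% of 27025 genes with a promoter. On the other strand the shares were 24.6% of members and 35.5% of all genes. The letters CCGGAAG, the core bound by ETS factors such as GABP, occurred on either strand of the 300-base promoter in 25 of 57 members (43.9%), against 9.93% of all genes. Of the 6 paralogue-like genes, 3 held the pyrimidine run and 2 the CCGGAAG core. Listed starts differ from the start used in a given cell, so these are descriptions of the sequence only.

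Large and small subunit genes did not separate by age. The median difference was 0.05 over 46 large subunit genes and 0.07 over 25 small subunit genes, and large minus small was -0.01. Centred per gene and averaged over the large subunit, the 4 old arrays stood at 0.02, 0.01, 0.01 and 0.07 and the 4 young arrays at -0.03, -0.01, -0.05 and -0.03. Over the small subunit the old arrays stood at 0.02, 0.01, 0.01 and 0.08 and the young arrays at -0.06, 0.00, -0.05 and -0.02. Both subunits had old replicate 4 highest among the old, and every old array lay above every young array in both. Large minus small per array averaged -0.002 ± 0.006 in old and 0.002 ± 0.015 in young (SD, n = 4 each), so the ages differed by less than the spread between animals. The sign of that contrast changed with several settings, so no order of the subunits is read from it.

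**Figure D2:**
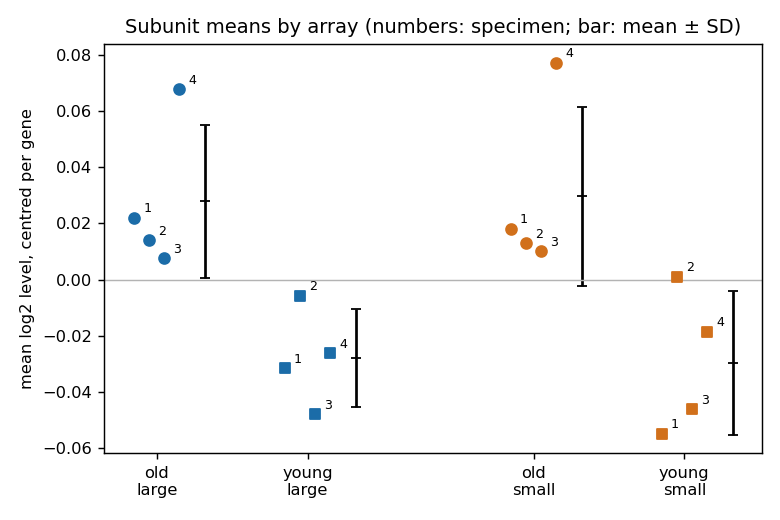
Mean log2 level of large (blue) and small (orange) subunit genes per array, each gene centred on its mean over 8 arrays, with specimen numbers beside the points and a bar for mean ± SD over 4 animals. Old arrays lie above young arrays in both subunits, and old array 4 is highest at 0.07 and 0.08.

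**Figure D3:**
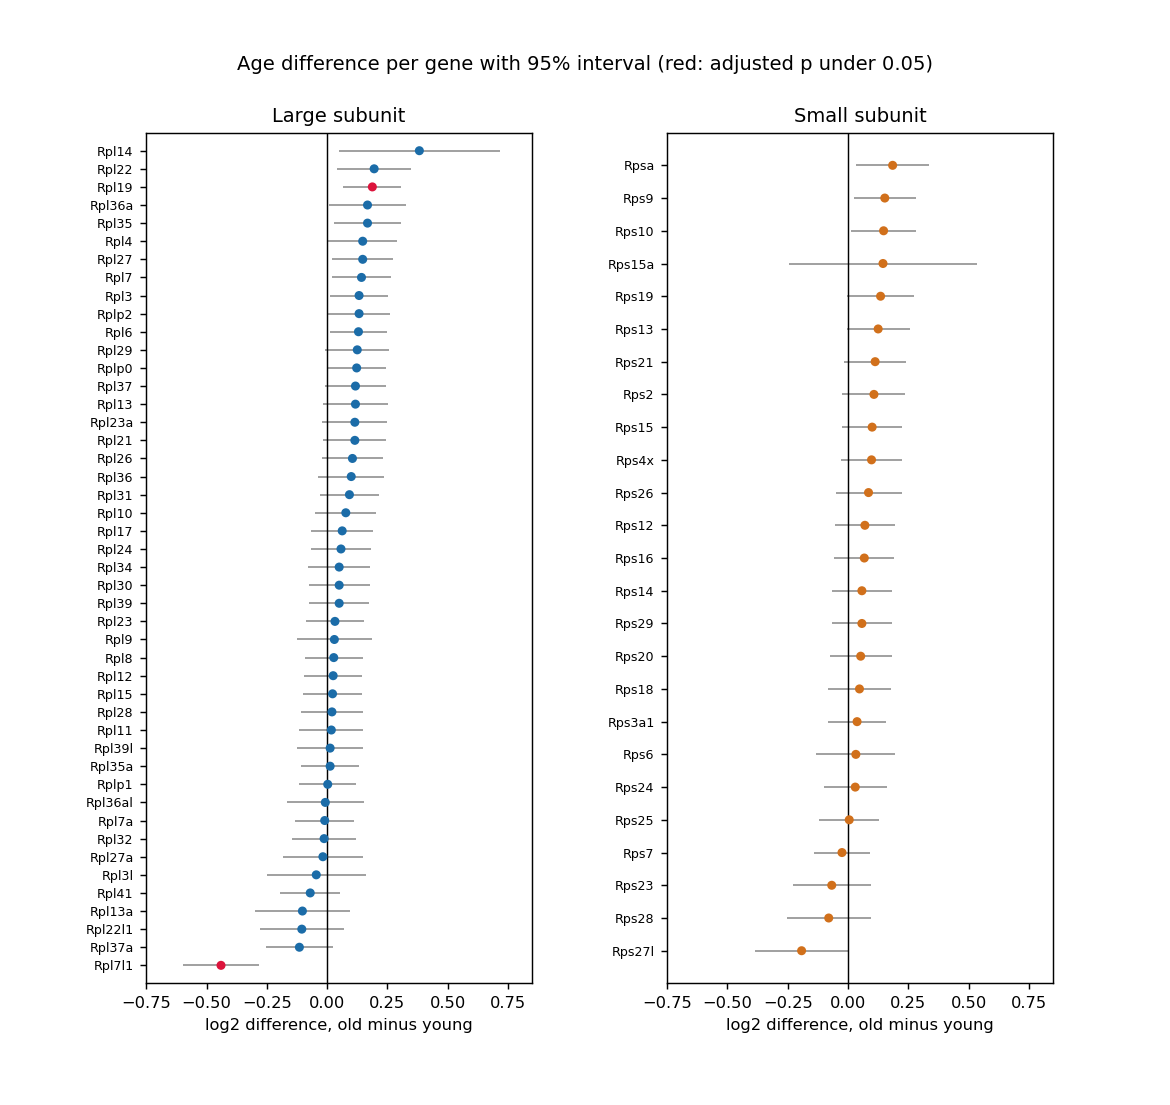
Old minus young log2 difference of each member with its 95% interval from limma, large subunit left and small subunit right, red where the adjusted p lay under 0.05. Intervals of most genes include 0, Rpl19 (0.19) and Rpl7l1 (-0.44) are the red points, and Rpl14 and Rps15a have the widest intervals.

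By place in the large subunit, the stalk proteins, which recruit elongation factors, were uneven. Rplp0, the base of the stalk, lay between 11.94 and 12.01 in old, against 11.82 and 11.88 in young. Rplp2 read 11.82, 11.77, 11.72 and 11.74 in old, against 11.55, 11.67, 11.66 and 11.64 in young. Both had separate groups and differences of 0.12 ± 0.05 and 0.13 ± 0.06 (SE) that did not pass (limma adjusted p = 0.163 and 0.156). Rplp1, the partner of Rplp2, differed by 0.00 ± 0.05 (SE; 95% interval -0.12 to 0.12).

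Other large subunit genes covered a narrow range. Rpl35, which sits by the exit of the peptide tunnel, read 11.67, 11.61, 11.51 and 11.51 in old, against 11.41, 11.47, 11.38 and 11.37 in young (0.17 ± 0.06 SE, adjusted p = 0.0964). Its other probe sets gave 0.155 and 0.18 with separate groups, and -0.025 with overlapping groups. Rpl10, one of the last proteins to join the subunit, differed by 0.08 ± 0.06, and Rpl31 by 0.09 ± 0.06 (SE). A probe set of Rpl31 at a similar level gave -0.0275, with overlapping groups. Rpl37a had all old values, 12.14 to 12.32, below all young values, 12.33 to 12.43, but its difference of -0.12 ± 0.06 (SE) did not pass (adjusted p = 0.249). Another probe set of Rpl37a at a similar level gave 0.05, with overlapping groups. Rpl13a differed by -0.10 ± 0.09 (SE), with an old range of 11.52 to 11.92 that enclosed the young range of 11.82 to 11.90.

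Among small subunit genes the largest average rise was that of Rpsa, which is also known as the laminin receptor. It read 12.53, 12.37, 12.27 and 12.43 in old fibroblasts, against 12.17, 12.26, 12.23 and 12.20 in young fibroblasts. The ages did not overlap, and the difference of 0.18 ± 0.07 (SE) missed the threshold (limma adjusted p = 0.094, and 0.0378 with a trended, robust variance). With the background covariate its difference was -0.03. Rps2, at the entry of the messenger RNA channel, differed by 0.11 ± 0.06 (SE), again with separate groups. Its other probe sets, which are also above 12, gave 0.035 and 0.0175 with overlapping groups. Rps6, the substrate of the S6 kinases, read 12.57, 12.82, 12.85 and 12.85 in old fibroblasts, against 12.74, 12.74, 12.73 and 12.75 in young fibroblasts. Old replicates 2 to 4 lay above all young values and old replicate 1 below them, and the difference was 0.03 ± 0.07 (SE). Without old replicate 1 it was 0.10.

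That array stood apart in a small set of members. Old replicate 1 was lower than the other old arrays by at least 0.1 in 7 genes: Rpl9, Rpl13a, Rpl27a, Rpl37a, Rps6, Rps23 and Rps28, named after their values were seen. All 7 have levels of 11 or over, a band in which this array was lowest by that margin for 12.3% of members and 11.3% of other genes. Rps28 read 12.15 in it, against 12.44 to 12.46 in the other old arrays and 12.45 to 12.47 in young arrays. Not all probe sets of these genes shared the low value. A second probe set of Rps28 read 12.43 in old replicate 1, against 12.27 to 12.41 in the other old arrays. For Rpl37a a second one read 12.35, against 12.09 to 12.20, while a dimmer one read 7.40, against 7.81 to 8.02. By a margin of at least 0.1 old replicate 1 was the highest old array for 2 members (2.82%), against 13% of other genes, and at 11 or over for 1.75% of members and 18.4% of other genes. This array also had the lowest mean of the 23 non-specific probe sets, at 4.18, against 4.28 to 4.43 in the other old arrays. The part of that background in these deviations was not tested.

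Spread between animals was small in young fibroblasts. The median SD over members was 0.06 in old and 0.03 in young, and the SD was larger in old for 55 of 71 members (77.5%), against 59.2% of all other genes. Among other genes at a level of 11 or over the share was 65.6%, with median SDs of 0.09 in old and 0.06 in young. Without old replicate 1 the SD was larger in old for 50 members (70.4%), against 48.4% of other genes and 52% of other genes at 11 or over. Rps6 had an SD of 0.14 in old and 0.01 in young, and Rpl7 one of 0.06 in old and 0.01 in young. Values are rounded to 2 decimals, so the smallest of these SDs are of the size of the rounding.

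Most members lay near the top of the scale, where probe sets can saturate. A level of 11 or over was reached by 57 of 71 members (80.3%), against 3.12% of all genes, and members made up 10.7% of the genes in that range. The median member lay at 11.70 and the median gene at 5.99, with the highest value of the table at 13.04. Levels of different probe sets do not rank transcripts by amount, and they are used here only as positions on the scale. Between 11 and 12 the median size of a difference was 0.13 over 403 other genes, and at 12 and over it was 0.07 over 74 other genes, against 0.19 over 3394 other genes between 8 and 10. In the same bands 23.1%, 8.11% and 30.3% of other genes were called. For the members the median size was 0.09 over 38 genes between 11 and 12, of which 1 was called (2.63%), and 0.06 over 19 genes at 12 and over, of which none was called (limma, adjusted p under 0.05). Between 11 and 12 the share of called members was thus below that of other genes at the same level. Signed medians did differ from the surroundings: members at 12 and over had 0.05 and other genes -0.02, and between 11 and 12 members had 0.08 and other genes 0.01.

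**Figure D4:**
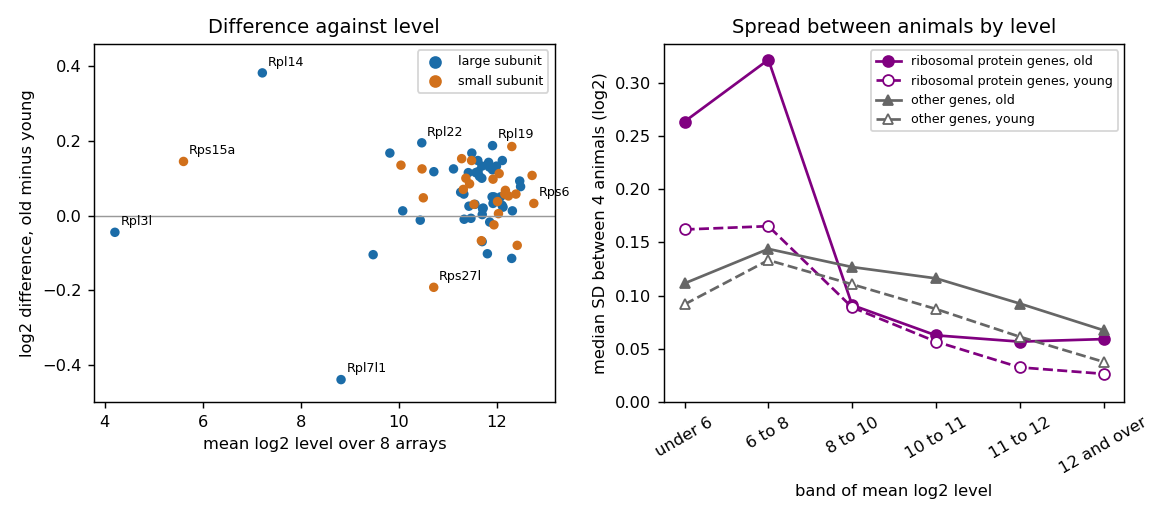
Left, old minus young log2 difference of each ribosomal protein gene against its mean log2 level, large subunit in blue and small in orange. Right, median SD between 4 animals by band of level, for ribosomal protein genes (purple) and other genes (grey), old with solid lines and young with broken lines. Most members lie at 11 or over, where the spread is small in both sets of genes, and the purple points below 8 rest on 2 genes and 1 gene.

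Of the 71 genes 34 had several probe sets, and some dimmer probe sets gave larger differences than the one that represents the gene. In Rps6 the probe sets disagreed. Its second probe set read 9.06, 8.88, 8.89 and 9.19 in old fibroblasts, against 8.61, 8.80, 8.57 and 8.74 in young fibroblasts. The ages did not overlap, and the difference of 0.33 ± 0.09 (SE) passed (limma over probe sets, adjusted p = 0.0313), where the bright probe set gave 0.03. A dim one, at 4.79 to 4.92 in old and 4.77 to 5.56 in young, gave -0.29 (adjusted p = 0.199).

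Rpl21 and Rpl22 each had a dimmer probe set that passed. The dim probe set of Rpl21, named after its values were seen, read 6.12, 6.01, 6.07 and 6.12 in old, against 5.38, 5.60, 5.62 and 5.58 in young. It rose by 0.54 ± 0.07 (SE, limma over probe sets, adjusted p = 8.46e-04), while the gene's bright probe sets gave 0.11 and 0.14 and did not pass. For Rpl22 the second probe set gave 0.43 ± 0.13 (adjusted p = 0.0461), with overlapping groups.

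Across 13 genes with a representative at 10 or over and a second probe set between 6 and 10, bounds set after the values were seen, the median difference was 0.20 in the dimmer and 0.06 in the brighter probe set. The dimmer one had the larger value in 8 of the 13. In Rpl37, Rpl37a and Rps21 it was negative, at -0.13, -0.28 and -0.05. Over all 134 member probe sets 5 were called higher and 2 lower, or 5.22%, against 16.8% of all probe sets with 1 symbol (9.63% higher and 7.16% lower). Probe sets of 13 genes differed in sign, among them Rpl24 (0.06 and -0.32) and Rps24 (-0.14 to 0.68). A probe set may read another part of the transcript, an isoform or a related pseudogene. Of the 71 representatives 26 carry an s or x tag, which marks probes that may match other genes, and 32 carry an a tag, which marks alternative transcripts of 1 gene. The values of the 26 cannot be assigned to 1 locus with certainty.

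**Figure D5:**
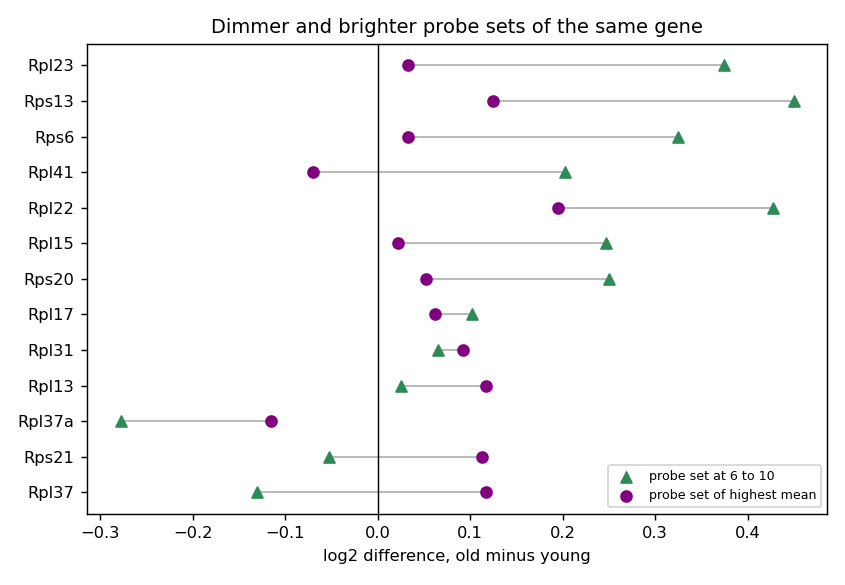
Old minus young log2 difference in 13 ribosomal protein genes with a probe set at a level of 6 to 10 (green triangles) and a brighter one that represents the gene (purple circles). The dimmer probe set lies to the right in 8 genes and to the left in 5, and the purple circles stay between -0.12 and 0.20.

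Members outside the bright range were few. Rpl14 had the largest average rise of any member, at 7.21, 7.59, 7.07 and 7.76 in old, against 7.15, 7.03, 6.79 and 7.13 in young. The groups overlapped, and 0.38 ± 0.15 (SE) did not pass (limma adjusted p = 0.115). Rps15a was represented by a probe set at 5.38 to 6.12 in old and 5.30 to 5.78 in young, and its 0.14 ± 0.18 (SE) was smaller than its error. Each has only 1 probe set with a single symbol. Another 15 probe sets that list a ribosomal protein gene beside other symbols were not used.

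The machinery around the ribosome was read from gene lists. Fau, which encodes a small subunit protein fused to a ubiquitin-like domain, differed by 0.11 ± 0.06 (SE, limma adjusted p = 0.262). Of 17 measured translation genes whose messenger RNAs are also known for a pyrimidine tract, 4 rose and 13 did not pass (23.5% called, background 17.5%), with a median of 0.12. The 4 were Nap1l1 (0.46), a histone chaperone, and the initiation factors Eif4b (0.46), Eif3e (0.36) and Eif3h (0.26). Nap1l1 read 10.18, 10.10, 10.03 and 10.34 in old, against 9.56, 9.85, 9.65 and 9.73 in young (adjusted p = 0.00533). Among 19 further initiation factors, counted without those of the list above, 2 rose (10.5% called), Eif5 (0.38) and Eif3m (0.32), with a list median of -0.04.

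Genes that build ribosomes differed from list to list. Of 66 genes of ribosomal RNA processing 8 rose, 0 fell and 58 did not pass (12.1% called), with a median of 0.11. The difference was above 0 for 52 of the 66, where 51.6% of all genes lay above 0, so this list leaned upward as the members did. Rrs1, which brings the 5S particle to the large subunit precursor, rose most in that list. It read 10.09, 9.58, 9.67 and 9.93 in old, against 8.80, 9.41, 8.75 and 8.95 in young, a difference of 0.84 ± 0.16 (SE, limma adjusted p = 0.00528). Las1l (0.39), which takes part in cutting the second internal spacer, Nop14 (0.48) and the pseudouridine synthase Dkc1 (0.30) rose too.

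Of 11 genes of RNA polymerase I transcription, 2 rose and 1 fell (27.3% called, median -0.04). Taf1b rose by 0.36 and Rrn3, which recruits the polymerase, by 0.19, whereas Taf1d fell by 0.29 on the log2 scale. Ubtf differed by 0.07 (adjusted p = 0.546). Of 9 chaperones and importers of ribosomal proteins, 2 rose, Ipo5 (0.43) and Nap1l4 (0.27), and 2 fell, Ipo4 (-0.34) and Bccip (-0.28), or 44.4%.

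Signalling to the ribosome was read from 18 genes, of which 1 rose and 1 fell (11.1% called, median -0.01). Eif4ebp1, the repressor of cap-dependent initiation that mTORC1 inactivates, read 8.09, 8.01, 8.02 and 7.71 in old, against 8.74, 8.69, 8.63 and 8.56 in young. It fell by 0.70 on the log2 scale (SE 0.09, limma adjusted p = 6.66e-04). Eef2k, the kinase that inhibits elongation factor 2, rose by 0.47 (adjusted p = 0.0217). Mtor (-0.11), Larp1 (-0.08) and Myc (0.50, adjusted p = 0.0964) did not pass. Of 8 genes that link ribosomal stress to p53 (25% called), Nop53, a nucleolar assembly factor, rose by 0.48 (adjusted p = 0.00128) and Ccng1, a p53 target, fell by 0.26.

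Other values moved with age beside these. Arrays correlated between 0.992 and 0.997 within an age and between 0.983 and 0.990 across ages. The mean of the 23 non-specific probe sets was 4.30 ± 0.10 in old and 4.55 ± 0.06 in young (SD, n = 4 each). With it as a covariate the count of called members was 0 and the median difference 0.05, against 171 called genes and a median of 0.02 over all genes. Of the positive sort-gate genes, Pdgfra lay at 8.34 to 8.64 in old and 8.20 to 8.54 in young. None of the 5 negative sort-gate genes was called. Ptprc, the gene of CD45, lay at 3.80 to 3.99 in old and 3.64 to 3.76 in young. Epcam lay at 4.43 to 4.99 in old and 4.19 to 4.32 in young. Cd24a lay higher on the scale, at 6.21 to 7.12 in old and 6.83 to 7.58 in young. Of 10 fibroblast markers 1 was called, Col3a1, which was lower in old (-0.28), and 3 had a difference above 0. Of 9 keratinocyte markers 3 rose and 1 fell, and their mean level ran from 8.27 to 9.48 in old and from 7.47 to 8.81 in young. Endothelial markers had 1 of 5 higher, mural and Schwann markers 1 of 3 higher, immune markers 1 of 8 higher and 1 lower, and the 3 adipocyte markers none called. Krt5, a defining keratinocyte marker, ranged from 10.26 to 11.38 in old and from 9.09 to 10.47 in young. The 3 keratinocyte markers that rose were Krt5 (1.04), Krt14 (1.65) and Perp (1.62), with separate groups only in Krt14. The 1 that fell was Trp63 (-0.405, limma adjusted p = 0.0237), with separate groups. Old replicate 4 had the highest keratinocyte mean and the highest mean of ribosomal protein genes. Among young arrays the order went the other way at both ends. Young replicate 3 had their highest keratinocyte mean (8.81) and the lowest centred ribosomal protein mean (-0.047). Young replicate 2 had the lowest keratinocyte mean (7.47) and their highest ribosomal protein mean (-0.003). The part of these markers in the ribosomal protein values was not tested. Without old replicate 4 the median over members was 0.05 and that over all genes -0.01.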

How the data were processed

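Dermal fibroblasts of 4 old and 4 young mice were measured on Affymetrix mouse arrays, 1 array per animal. Values were deposited on a log2 scale, 1 per probe set and array, and the submitters' processing notes name RMA and affy, without versions. RMA makes array distributions alike, so a shift common to most genes cannot be seen, and bright probe sets may saturate. No genome build is named for the array.

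Probe sets with 1 symbol (28898 of 45141) were named from the platform annotation, and 28689 of them matched a gene ID in RefSeq GRCm38.p6, used to update names. The age comparison used lmFit and eBayes of limma 3.58.1 (R 4.3.3), 2-sided, over 17097 genes, with a fit over probe sets for single probe sets. The test was checked on simulated data. Figures used matplotlib 3.10.9. The number of arrays limits precision, and no read depth applies.

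The members and lists were chosen with earlier results of these data known. Named members are those past the threshold, the 6 largest differences in each direction, the 5 brightest and 5 dimmest, stalk genes, Rpsa, Rps6, paralogue-like genes with their parents, and genes whose probe sets disagree, with others marked. In context lists up to 4 called genes of smallest p are named. Alternatives were other scalings, probe set choices, filters, variance models, thresholds, a replicate block, a background covariate and each array left out.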

Additional observations from a re-analysis of the deposited data

Results flagged for a closer look

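In 62 sets of 4 values, 1 value in each of 7 sets lay far from the other 3, and chance does this in about 1 of 20 sets. All 7 are old arrays. In the probe sets that stand for the genes, old replicate 1 was low for Rpl24 (11.30, others 11.37 to 11.38), Rps28 (12.15, others 12.44 to 12.46) and Rps6 (12.57, others 12.82 to 12.85). Old replicate 2 was low for Rps27l (10.48, others 10.65 to 10.68). Old replicate 4 was high for Rpl31 (12.57, others 12.49 to 12.50), for Rpl3l (4.46, others 4.06 to 4.12) and for the small subunit mean (0.0774, others 0.0102 to 0.0182).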

How the results depend on the processing

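The number of called ribosomal protein genes, 2 of 71, changed with most choices. It was 1 after median centring, 1 at an adjusted p under 0.01, 1 without the paralogue-like genes, 0 with the background covariate, 5 at an adjusted p under 0.10, 5 with the mean over all probe sets, and 4 of 71 with the most variable probe set. Untagged probe sets gave 4 of 31. Leaving out single arrays gave 1 to 2, with 1 without old replicates 1, 2 or 4 or young replicates 2, 3 or 4. Rpl7l1 was called in each of these fits, and Rpl19 was not called in any. Where the count was 2, the other gene was Rpl14 without old replicate 3 (limma adjusted p = 0.0449) and Rps27l without young replicate 1 (0.0464). Over all genes the count of 2998 was 171 with the covariate, 1436 at 0.01, and 2201 to 2928 with an array left out. At an adjusted p under 0.10 and with other probe set choices the all-gene count is not given here. Those member counts are therefore not read as more change among members.

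The median over members stayed above 0 in all alternatives, at 0.05 to 0.08 with an array left out and 0.1225 with untagged probe sets. That over large subunit genes was 0.09 with the most variable probe set, 0.0775 with untagged ones and 0.0775 without paralogue-like genes (added after seeing the data), and 0.04 to 0.07 with an array left out. That over small subunit genes was 0.1812 with untagged probe sets, 0.0312 with the covariate, and 0.04 to 0.08 with an array left out. Large minus small was 0.0125 with the most variable probe set, -0.104 with untagged ones, 0.0026 with array weights, 0.0237 with the covariate, 0.00875 without paralogue-like genes, and -0.0229 to 0.0104 with an array left out. For these shifts the cause was not tested.

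Among named members the call of Rpl7l1 held in 16 of 18 alternatives and that of Rpl19 in 7. With the specimen number as a replicate block 2 members and 3106 genes were called, with Rpl14 passing (adjusted p = 0.0355) and Rpl19 lost (0.103). Same-numbered animals correlated by 0.285, 0.052, -0.044 and 0.224 in their deviations. Other pairs of an old and a young animal ran from -0.255 to 0.213. Whether the numbers stand for more than a label was not tested. How far saturation limits differences among the brightest probe sets was not tested.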
